A study of Mus musculus with 3 samples.

Results

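The oxidative phosphorylation genes comprised 106 of the 27998 genes in the count tables, taken by symbol: the nuclear genes of the Nduf, Uqcr, Cox4 to Cox8, Atp5 and Sdha to Sdhd families and Cycs (93 genes), and the protein-coding genes of the mitochondrial genome (13 genes). No measured value entered this choice. They were read in single-cell transcriptomes of mouse suprarenal aorta, where 3 libraries, 1 per group, held the sorted CD45+CD31- and CD45-CD31+ cells of pooled animals. The aneurysm library came from 4 Apoe-/- mice kept on a Western (high fat) diet for 16 weeks with cigarette smoke, all of which had a measurable dilatation. The room air library came from 5 Apoe-/- mice on the same diet without smoke. The control library came from 5 C57BL/6 mice fed chow, so it differed from the room air library in genotype and diet together, and those effects cannot be told apart. The study set out to describe macrophage diversity in aortic lesions; the Apoe-/- mice lacked the gene in every cell, and the aneurysm mice were those of the smoke-exposed animals that had dilated, so smoke and dilatation cannot be told apart either.

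The respiratory chain passes electrons from NADH through complex I, or from succinate through complex II, to complex III, by cytochrome c to complex IV and on to oxygen, and the proton gradient built by complexes I, III and IV drives ATP synthesis by complex V. Complex II is encoded wholly in the nucleus, whereas the other complexes combine nuclear subunits with subunits made inside the mitochondrion from its own polycistronic transcripts. The 2 sets of transcripts are made by different polymerases, so their ratio can differ between cells. Macrophages and T cells are known to shift between glycolysis and respiration when they are activated.

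With 1 library in each group there is no replicate error and no p-value. Every ratio below is of CPM (unique molecule counts, UMIs, scaled so that the cells summed have a total of 1000000), given with a 95% interval that covers counting error only, and a ratio whose interval leaves out 1 may still lie within the unmeasured spread between mice. After filters 2774 aneurysm, 1821 room air and 773 control cells were kept, with 16095410, 9774441 and 2536525 UMIs. The median cell held 4386 UMIs in the aneurysm library, 3847 in the room air library and 2681 in the control library, and reported viability was 94% in the aneurysm, 91% in the room air and 73% in the control library. The leukocyte gene Ptprc had a UMI in 75.6% of aneurysm, 74.5% of room air and 49.5% of control cells. Apoe was at 13.1 CPM in the aneurysm library, 17.1 CPM in the room air library and 10522 CPM in the control library. Few cell barcodes were shared: 5 between the aneurysm and room air libraries, 4 between the room air and control libraries and 0 between the aneurysm and control libraries. The 13 mt- genes in the tables were exactly the 13 mitochondrial members, so the limit of 10% on mt- UMIs acted on the members themselves; it took out 3 aneurysm, 3 room air and 4 control barcodes.

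Of the 93 nuclear members, 2 had no UMI in any kept cell (Cox7b2 and Cox8c, which are testis isoforms of complex IV subunits) and 5, these included, had fewer than 50. In the whole libraries the nuclear members summed to 24392 CPM in aneurysm, 24277 in room air and 25574 in control cells, and the mitochondrial members to 23399, 21652 and 26235 CPM in the same libraries. Each nuclear UMI was thus matched by 0.959, 0.892 and 1.03 mitochondrial UMIs. The most abundant nuclear member was Cox4i1, the regulatory subunit 4 of complex IV, at 1047 CPM in aneurysm, 1058 in room air and 1107 in control cells. The most abundant member of complex I was Ndufa13, an accessory subunit, at 448 CPM in aneurysm, 467 in room air and 548 in control cells. Sdhb, the iron-sulphur subunit, led complex II at 225, 223 and 191 CPM, Uqcrh, the hinge protein, led complex III at 622, 615 and 658 CPM, and Atp5l, subunit g, led complex V at 950, 921 and 1044 CPM in aneurysm, room air and control cells. Among the mitochondrial members mt-Atp6, the proton channel subunit of complex V, had the most UMIs, at 6194 CPM in aneurysm, 5688 in room air and 6190 in control cells. These levels are UMIs from the 3′ ends of transcripts and were not divided by length.

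The 13 mitochondrial genes are packed so tightly that some reading frames share bases, which bears on how reads can be assigned to them. On the same strand mt-Atp6 and mt-Co3 share 1 base, which is not shown. The 4 stretches below show the 2 longer overlaps on the same strand in GRCm38, with the shared bases in capitals. They are the last 90 bases of mt-Atp8 (chrM:7880-7969, + strand), the first 90 of mt-Atp6 (chrM:7927-8016, +), the last 90 of mt-Nd4l (chrM:10084-10173, +) and the first 90 of mt-Nd4 (chrM:10167-10256, +).
mt-Atp8: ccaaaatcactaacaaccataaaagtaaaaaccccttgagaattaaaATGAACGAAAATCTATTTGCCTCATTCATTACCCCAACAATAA
mt-Atp6: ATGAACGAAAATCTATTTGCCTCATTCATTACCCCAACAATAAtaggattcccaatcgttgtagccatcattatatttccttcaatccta
mt-Nd4l: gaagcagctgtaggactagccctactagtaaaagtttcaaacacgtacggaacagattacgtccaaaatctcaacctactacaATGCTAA
mt-Nd4: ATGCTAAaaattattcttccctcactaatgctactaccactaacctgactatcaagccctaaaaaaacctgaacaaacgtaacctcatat
The mt-Atp8 and mt-Atp6 frames share 43 bases and the mt-Nd4l and mt-Nd4 frames 7, and each pair is known to lie on 1 messenger. The mt-Nd5 and mt-Nd6 genes overlap by 14 bases on opposite strands, and mt-Nd6 had only 122 UMIs in all. A UMI of mt-Atp8 or mt-Nd4l may thus come from the messenger it shares with its neighbour, and mt-Nd6 rests on few UMIs, so that values of these 3 genes are uncertain in what follows.

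Cells were clustered without the members, and clusters were named from lists of marker genes, with the ending -like for each class. Across these classes the nuclear members varied little and the mitochondrial members more. Among the 12 classes with at least 25 cells in the aneurysm library, the nuclear sum ran between 20240 CPM in B cell-like and 27729 CPM in gamma-delta T-like cells, a 1.37-fold span, and the mitochondrial sum between 17503 CPM in mature dendritic cell-like and 36811 CPM in endothelial-like cells, a 2.10-fold span. In the room air library the spans over 11 classes were 1.33-fold and 1.93-fold, and in the control library over 7 classes 1.40-fold and 1.81-fold. A high mitochondrial sum did not go with a high nuclear sum: the correlation between them over classes was -0.31 in aneurysm, -0.22 in room air and -0.66 in control, as a description over classes that share a library and with no p. Within single cells of a class the 2 shares were weakly related at most, with Spearman correlations between -0.30 and 0.23 over the class and library pairs. T cell-like cells had negative values in each library, at -0.16 in aneurysm, -0.17 in room air and -0.30 in control. Macrophage-like cells had positive ones, at 0.05, 0.04 and 0.23.

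**Figure D1:**
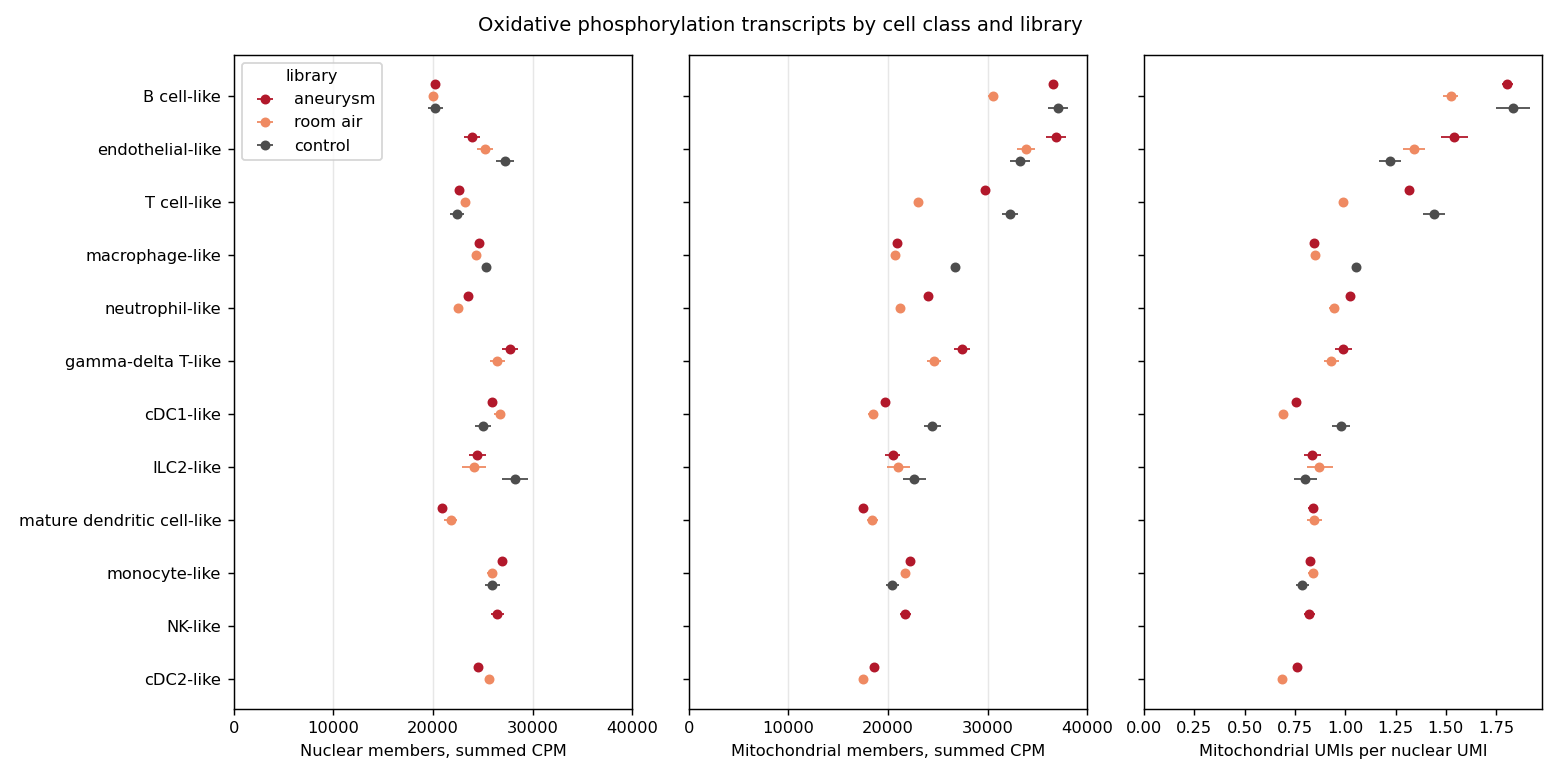
Summed CPM of the 93 nuclear members (left), of the 13 mitochondrial members (middle) and mitochondrial UMIs per nuclear UMI (right) in each cell class with at least 25 cells, with 1 point per library and 95% counting intervals. The nuclear sums stay between 20024 and 28201 CPM, while the mitochondrial sums of B cell-like, endothelial-like and T cell-like cells lie to the right of the myeloid classes in the aneurysm and control libraries.

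Among the named classes of at least 25 cells in a library, B cell-like cells had the most mitochondrial UMIs per nuclear UMI in each library: 1.81 in aneurysm, 1.52 in room air and 1.83 in control cells. Endothelial-like cells followed in the aneurysm and room air libraries at 1.54 and 1.34, and stood at 1.22 in the control library. T cell-like cells had 1.32 in aneurysm, 0.990 in room air and 1.44 in control cells. The lowest values among these classes were in dendritic cells and monocytes: cDC1-like cells at 0.758 in the aneurysm library, cDC2-like cells at 0.684 in the room air library and monocyte-like cells at 0.787 in the control library. Macrophage-like cells stood between, at 0.847 in aneurysm, 0.852 in room air and 1.05 in control cells. Classes with fewer UMIs per cell tended to have the higher ratio (Pearson r between ratio and median UMIs -0.49, -0.61 and -0.56 in aneurysm, room air and control, a description over classes with no p), and the part of depth in the order of classes was not tested. A cluster led by cell division genes, to which no class name was given, had a nuclear sum of 29016 CPM in aneurysm, 27551 in room air and 29900 in control cells, above that of every named class of at least 25 cells in the same library.

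Between the aneurysm and the room air library, the mitochondrial per nuclear ratio was higher in aneurysm cells in 7 of the 11 classes compared with an interval above 1, and in no class was it below 1 with an interval below 1. T cell-like cells showed the widest gap, with 1.32 mitochondrial UMIs per nuclear UMI in aneurysm against 0.990 in room air cells, a ratio of 1.33 (1.30 to 1.36). In B cell-like cells the ratio was 1.19 (1.15 to 1.22), in endothelial-like cells 1.15 (1.08 to 1.22), in cDC2-like cells 1.11 (1.08 to 1.14) and in cDC1-like cells 1.09 (1.05 to 1.14). In gamma-delta T-like cells it was 1.06 (1.001 to 1.13) and in neutrophil-like cells 1.09 (1.05 to 1.12). The neutrophil-like cells also carried UMIs of the complement C1q genes, which mark macrophages, at 9965 CPM in aneurysm and 11572 CPM in room air cells, where macrophage-like cells had 13983 and 14093 CPM. The part of such RNA in the neutrophil-like ratio was not tested. With cells weighted equally the cDC1-like value turned to 0.966, and among cells with 2000 to 6000 UMIs the gamma-delta T-like one turned to 0.990. The macrophage-like ratio was 0.994 (0.983 to 1.006), with 694 aneurysm and 584 room air cells behind it. Monocyte-like cells at 0.985 (0.955 to 1.02) and mature dendritic cell-like cells at 0.990 (0.940 to 1.04) also had intervals that included 1. The 2 monocyte clusters lay on opposite sides, at 0.949 (0.918 to 0.981) in the cluster led by Chil3 and Hp (168 aneurysm and 65 room air cells) and at 1.19 (1.11 to 1.29) in the one led by Treml4 and Adgre4 (43 and 30 cells). The nuclear sum of T cell-like cells was at 22594 CPM in aneurysm and 23240 CPM in room air cells (ratio 0.972, and 1.07 with TMM scaling), so most of the gap lay in the mitochondrial sum, at 29723 CPM in aneurysm and 23004 CPM in room air cells.

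The same T cell result was seen inside each T cell cluster, at a smaller size. In the cluster led by Dapl1, Cd8b1 and Lef1 the ratio between aneurysm and room air was 1.24 (1.19 to 1.30), in the cluster led by Gzmk 1.24 (1.19 to 1.28) and in the cluster led by Izumo1r and Cd4 1.14 (1.10 to 1.19). These clusters made up different shares of the class, with 259, 132 and 196 aneurysm cells against 72, 248 and 97 room air cells. In T cell-like cells 2 further quantities moved with the ratio. Ribosomal protein genes summed to 358830 CPM in aneurysm, 287770 in room air and 402070 in control cells. The macrophage genes C1qa, C1qb and C1qc, which T cells do not make, summed to 533 CPM in aneurysm, 1738 in room air and 571 in control cells, and in B cell-like cells to 541, 1782 and 585 CPM. The part of either in the ratio was not tested.

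Between the room air and the control library, the ratio was lower in room air cells in 4 of the 7 classes compared and higher in 2, again counted where the interval left out 1. T cell-like cells had 0.990 in room air against 1.44 in control cells, a ratio of 0.688 (0.659 to 0.718), cDC1-like cells 0.708 (0.668 to 0.750), macrophage-like cells 0.810 (0.795 to 0.825) and B cell-like cells 0.832 (0.790 to 0.875). Monocyte-like cells stood on the other side at 1.07 (1.01 to 1.12), and endothelial-like cells at 1.10 (1.03 to 1.17), while the interval of ILC2-like cells, 1.09 (0.983 to 1.20), included 1. T cell clusters again shared the direction, at 0.781 (0.730 to 0.835) in the Dapl1 and Lef1 cluster and 0.736 (0.686 to 0.789) in the Izumo1r and Cd4 cluster. Room air values were thus the lowest of the 3 libraries in T cell-like, B cell-like and cDC1-like cells, and the aneurysm value lay between the others in each of them.

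In macrophage-like cells this comparison set different clusters against each other. Of the 309 control cells, 293 were in 1 cluster led by Apoe, Ccl24 and Lyve1, a gene of resident vessel-wall macrophages, which held 11 of the 584 room air cells and 4 of the 694 aneurysm cells. Apoe is the gene that the room air and aneurysm mice lacked, and it was not barred from the genes used for clustering. The libraries were clustered together with no correction for library, and the part of genotype in this split was not tested. The room air and aneurysm cells were mostly in clusters led by Spp1 and Gpnmb or by other macrophage genes, so no cluster had 25 cells in both the room air and the control library. Where aneurysm and room air could be compared inside a cluster, the ratio was 0.992 (0.975 to 1.01) in the Spp1 and Gpnmb cluster with 300 aneurysm and 203 room air cells, and included 1 in 2 other clusters. In the cluster led by Ccl8, Cxcl13 and Cd209f, with 95 aneurysm and 41 room air cells, it was 0.849 (0.815 to 0.886), so the value near 1 over the class does not hold in each cluster. Depth moved with the control comparison as well, at a median of 6407 UMIs in room air and 3243 UMIs in control macrophage-like cells. Among cells with 2000 to 6000 UMIs the ratio was 0.913, nearer to 1 than the 0.810 over all cells.

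The mitochondrial members did not move as a block. Between aneurysm and room air, mt-Nd1 and mt-Nd2, complex I subunits encoded just after the ribosomal RNAs, were higher in aneurysm cells in 11 of 11 classes each, with ratios of 1.08 to 1.52 for mt-Nd1 and 1.04 to 1.40 for mt-Nd2, and the direction was the same with TMM scaling. The interval was above 1 in 10 of the 11 classes for mt-Nd1 but in only 3 for mt-Nd2. mt-Nd1 stood at 2460 CPM in aneurysm, 1622 in room air and 2821 in control T cell-like cells, a ratio of 1.52 (1.43 to 1.60) between aneurysm and room air. Of the complex IV subunits, mt-Co1 was higher in 5 of 11 classes and mt-Co3 in 6 of 11. In macrophage-like cells mt-Nd1 was at 1870 CPM in aneurysm, 1738 in room air and 2672 in control cells, so its aneurysm and room air values lay close together and both below control.

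**Figure D2:**
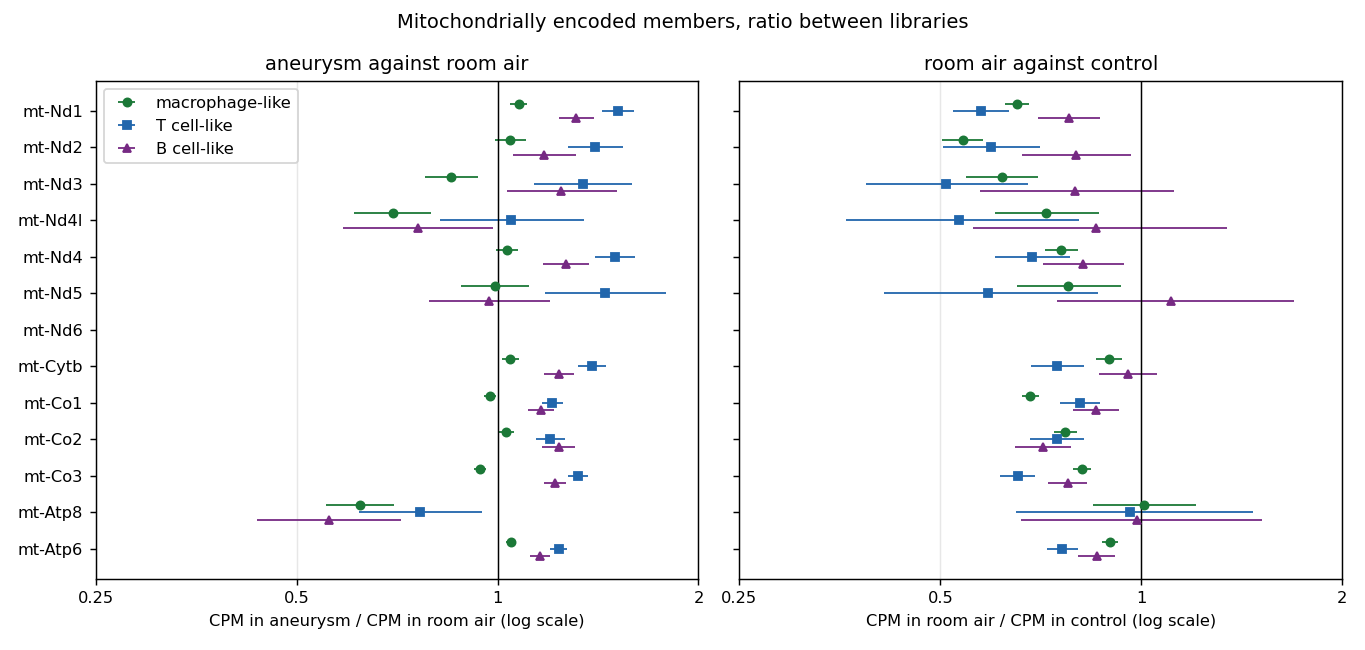
Ratio of CPM between libraries for each of the mitochondrial members in macrophage-like, T cell-like and B cell-like cells, on a log scale with 95% counting intervals; left, aneurysm over room air, right, room air over control. On the left mt-Atp8 lies below 1 in all 3 classes, at 0.622, 0.766 and 0.559, while mt-Atp6, which shares its messenger, lies above 1; mt-Nd6 fell under the minimum of 50 UMIs and has no point.

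mt-Atp8 went against its neighbours. It was lower in aneurysm than in room air cells in all 7 classes where it had enough UMIs, with ratios of 0.559 to 0.766, while mt-Atp6 was higher in 9 of 11 classes. The interval left out 1 in 5 of the 7 classes for mt-Atp8 and in 7 of the 11 for mt-Atp6. In macrophage-like cells mt-Atp8 was at 86.6 CPM in aneurysm, 139 in room air and 138 in control cells, in T cell-like cells at 114, 148 and 154 CPM, and in B cell-like cells at 119, 213 and 216 CPM. Per 100 mt-Atp6 UMIs there were 1.44 mt-Atp8 UMIs in aneurysm (1.37 to 1.52), 2.50 in room air (2.37 to 2.63) and 2.30 in control cells (2.07 to 2.55). Over classes the aneurysm values ran from 1.02 to 1.81 with a median of 1.48, the room air values from 1.40 to 3.08 with a median of 2.41, and the control values from 1.71 to 2.62 with a median of 1.95. mt-Nd4l per 100 mt-Nd4 UMIs, the other overlapping pair printed above, had medians over classes of 6.80 in aneurysm, 9.11 in room air and 10.9 in control. As each library was prepared once, whether this belongs to the cells or to the library cannot be told apart.

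Between room air and control the complex I subunits showed the widest gaps. mt-Nd3 was lower in room air cells in 6 of 6 classes, with ratios of 0.509 to 0.795, and mt-Nd1 and mt-Nd2 in 6 of 7 classes each. The interval was below 1 in 4 classes for mt-Nd3 and in 5 each for mt-Nd1 and mt-Nd2. In macrophage-like cells the 7 mitochondrial complex I genes summed to 3728 CPM in room air against 5640 CPM in control, a ratio of 0.661 (0.642 to 0.680), whereas mt-Cytb, the complex III subunit, had 0.894 (0.855 to 0.935), the 3 complex IV genes 0.750 (0.736 to 0.764) and the 2 complex V genes 0.900 (0.877 to 0.925). T cell-like cells had 0.603 (0.565 to 0.643) for the complex I genes, 0.748 (0.683 to 0.820) for mt-Cytb, 0.724 (0.695 to 0.755) for the complex IV genes and 0.765 (0.725 to 0.808) for the complex V genes. Between aneurysm and room air T cell-like cells had 1.47 (1.42 to 1.53) for the complex I genes, 1.38 (1.32 to 1.45) for mt-Cytb, 1.254 (1.23 to 1.28) for the complex IV genes and 1.22 (1.19 to 1.26) for the complex V genes, so the complex I genes were again the farthest from 1.

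In CPM the nuclear sum of room air cells ran from 0.855 of its control level in ILC2-like cells to 1.07 in cDC1-like cells. It stood at 0.960 (0.947 to 0.972) in macrophage-like cells. TMM scaling put it farther below control in macrophage-like cells and below control in T cell-like cells, as given further on. In macrophage-like cells the parts of the nuclear sum lay on both sides of their control level. Between room air and control, complex I summed to 0.945 of its control level (0.923 to 0.968), complex III to 0.911 (0.877 to 0.946) and complex IV to 0.885 (0.864 to 0.907), while complex II stood at 1.24 (1.13 to 1.35), complex V at 1.04 (1.01 to 1.07) and Cycs, the soluble carrier between complexes III and IV, at 1.67 (1.43 to 1.96). TMM scaling, an alternative to CPM that centres the bulk of genes, lowers each of these by 0.14 on the log2 scale, which takes complex V below 1 and leaves the other directions as they are. Of the 93 nuclear members 84 reached 50 UMIs over both libraries, the minimum used throughout; 40 were higher and 44 lower, with a median log2 ratio of -0.02 against 0.14 over the 7560 genes tested. Only 6 were higher by at least 1.5-fold and 0 lower, where 23.4% of all genes tested were higher and 10.3% lower by that much. A smaller share of the nuclear members thus passed the fold. Counting error is wider for genes near the minimum of 50 UMIs, and the genes tested were not matched to the members for abundance.

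Members past 1.5-fold whose interval left out 1 included Cycs at 267 CPM in room air against 159 CPM in control (ratio 1.67), Ndufaf3, a complex I assembly factor, at 38.3 against 23.0 CPM (1.66), Uqcrfs1, the Rieske iron-sulphur protein of complex III, at 175 against 108 CPM (1.62, 1.34 to 1.97), and Ndufs1, the largest core subunit of complex I, at 38.3 against 23.9 CPM (1.60). The aneurysm levels in macrophage-like cells were 313 CPM for Cycs, 39.7 CPM for Ndufaf3, 180 CPM for Uqcrfs1 and 36.6 CPM for Ndufs1. For each of these 4 genes the aneurysm and room air libraries lay together and the control library below them, and only for Cycs did the aneurysm to room air ratio leave out 1, at 1.18 (1.09 to 1.27). With TMM scaling the ratios were 1.52 for Cycs, 1.51 for Ndufaf3, 1.47 for Uqcrfs1 and 1.46 for Ndufs1.

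The nuclear structural subunits were divided into a core list and the others. This division was drawn after the values were seen, so the contrasts below are a description and test nothing. The others hold more than accessory subunits, such as Uqcrc2, a core protein of complex III. Control and room air macrophage-like cells lay in different clusters, as given above, and the part of this in the contrast was not tested. The core list held 13 genes: the nuclear core subunits of complex I (among them Ndufs1, Ndufs7 and Ndufv1), the catalytic subunits Sdha and Sdhb of complex II, Uqcrfs1, and the alpha, beta and gamma subunits of the ATP synthase head (Atp5a1, Atp5b and Atp5c1). In macrophage-like cells 12 of the 13 exceeded their control level in room air, with a median log2 ratio of 0.51, where 60.0% of all genes tested did so, with a median of 0.14. Ndufs7 was the exception, at 191 CPM in room air against 200.2 CPM in control. Of the other 61 structural subunits with enough UMIs 21 were higher and 40 lower, with a median of -0.15. The core genes summed to 1.34 of their control level (1.29 to 1.40) and the others to 0.919; with TMM scaling the values were 1.22 and 0.837. Among cells with 2000 to 6000 UMIs, an alternative added after the data were seen, they were 1.15 (1.08 to 1.23) and 0.914. There 10 of the 13 core genes were above control, with a median of 0.21, where 58.0% of all genes were, with a median of 0.10. Sdha, the flavoprotein that oxidises succinate, stood at 137 CPM in aneurysm, 149 in room air and 99.7 in control cells, and Atp5b, the catalytic beta subunit, at 595, 579 and 412 CPM.

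Between aneurysm and room air the macrophage-like sums lay closer to 1, at 1.02 (1.001 to 1.05) for the core sum and 1.01 for the others, medians of 0.04 and 0.02, and 0 nuclear members past 1.5-fold in either direction, where 1.76% of all genes tested were higher and 3.98% lower by that much. Of the 86 nuclear members tested the ratios lay between 0.861 and 1.18. Fewer core genes could be tested singly elsewhere, such as 10 of them in cDC1-like cells for room air over control. The sums, here and above, take in all 13 core genes or all 69 others, whether tested singly or not. In cDC1-like cells room air over control was 1.30 (1.15 to 1.48) for the core sum and 1.03 for the others. In T cell-like cells it was 1.20 (1.08 to 1.33) and 1.02, which became 0.942 and 0.799 with TMM scaling. In monocyte-like cells the core sum was at 1.21 (1.08 to 1.35), and at 1.11 with TMM scaling. The interval of the core sum included 1 in B cell-like cells, at 1.05 (0.935 to 1.19), and in endothelial-like cells, at 0.979 (0.835 to 1.15). It also included 1 in ILC2-like cells, at 0.958 (0.765 to 1.20). Of the 13 core genes, 11 could be tested singly in B cell-like, 4 in endothelial-like and 1 in ILC2-like cells. The 1 gene tested in ILC2-like cells lay on the other side of its control level, at a log2 ratio of 0.26.

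Genes of the core list tend to have longer transcripts than the other structural subunits, and length moved with the ratio. In macrophage-like cells the Spearman correlation between the median length of a gene's annotated protein-coding transcripts and its log2 ratio of room air over control was 0.64 over the 84 nuclear members, and 0.0085 over the 7435 tested genes with a length. The 58 nuclear members under 1000 bases had a median log2 ratio of -0.15 and the 26 of at least 1000 bases one of 0.40, against 0.03 and 0.17 over all genes. Ndufs1 has a median annotated length of 651 bases, as many of its annotated transcripts are short. Genes are not independent replicates, no p is given, and length and core membership were not separated.

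**Figure D3:**
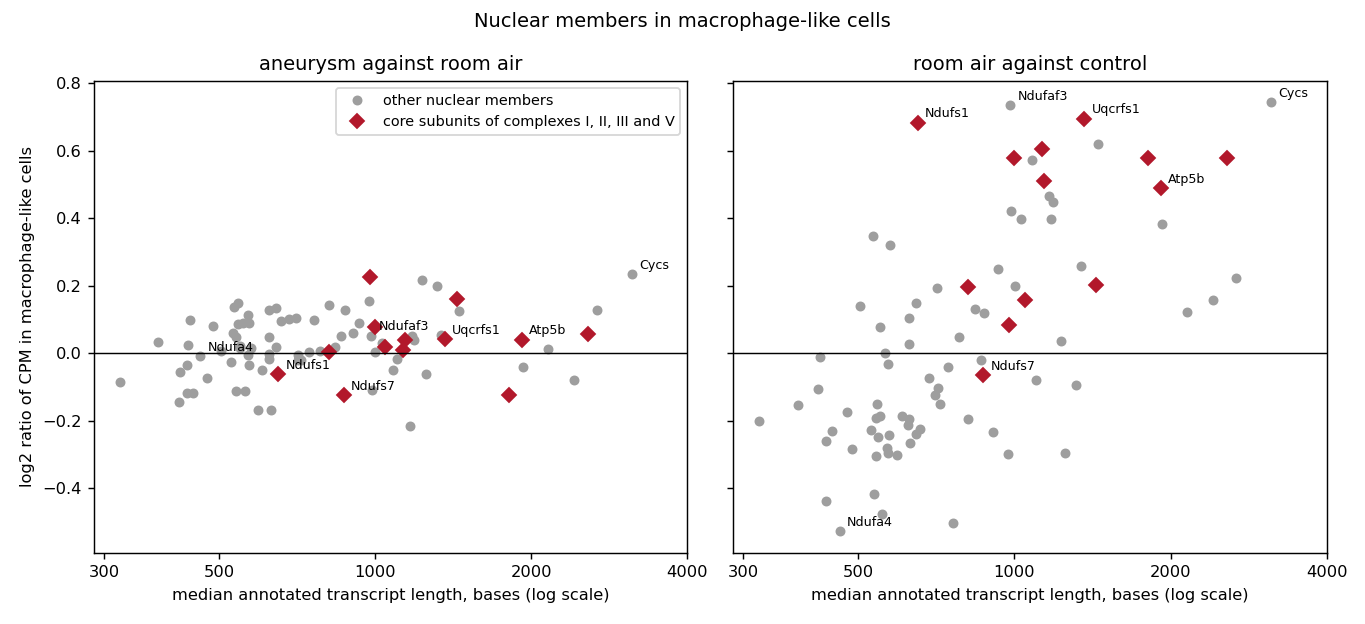
log2 ratio of CPM in macrophage-like cells against the median annotated transcript length (log scale) for each nuclear member with at least 50 UMIs; left, aneurysm over room air, right, room air over control. Red diamonds are the 13 core subunits, grey points the other nuclear members: on the right 12 of the 13 diamonds lie above 0 and most short transcripts below it, on the left all points lie near 0.

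Some members kept their direction over classes. Between room air and control Atp5b was higher in 7 of 7 classes, with ratios of 1.13 to 1.77, and also in 7 of 7 with TMM scaling. In T cell-like cells it was at 656 CPM in aneurysm, 625 in room air and 453 in control cells. Its widest ratio was in monocyte-like cells, at 597 CPM in room air against 337 CPM in control (1.77, 1.34 to 2.38). Lower in 7 of 7 classes, with both scalings, were Ndufa4, a small subunit now placed in complex IV, and Atp5j2, subunit f of the ATP synthase. Ndufa4 was at 427 CPM in aneurysm, 430 in room air and 619 in control macrophage-like cells. In ILC2-like cells Ndufa4 was at 226 CPM in room air against 813 CPM in control (0.278, 0.145 to 0.503), from 15 and 51 UMIs. The accessory complex I subunits Ndufa5, Ndufa7 and Ndufb7 were lower in 6 of 6 classes each. Accessory subunits of complex I did not all share this direction. Ndufa12 and Ndufb8 were higher in 6 of 6 classes each, and in 4 of 6 with TMM scaling. Between aneurysm and room air Uqcrc2, core protein 2 of complex III, was higher in 9 of 9 classes, with ratios of 1.04 to 1.51. The interval left out 1 in fewer of these classes. It did so in 4 classes for Atp5b and in 3 each for Ndufa4 and Atp5j2. For Ndufa7, Ndufb7 and Uqcrc2 the number was 2 each, for Ndufa5 1, and for Ndufa12 and Ndufb8 0. These genes were picked after their values were seen, and the share of all genes that keep their direction over classes was not computed. The classes share a library, so agreement over classes is not replication.

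Outside macrophage-like cells the count of nuclear members past the fold differed by class and comparison. T cell-like cells had 5 of 75 nuclear members higher by at least 1.5-fold in room air than in control and 0 lower, against 36.1% and 5.01% of all genes tested; only Sdha, at 168 CPM in room air against 103 CPM in control (1.63, 1.03 to 2.73), had an interval that left out 1. The median gene of this T cell comparison was 0.35 higher on the log2 scale, and with TMM scaling, which takes this shift out, 0 nuclear members were higher and 9 lower by 1.5-fold, where 21.3% of all genes were then higher and 15.9% lower. B cell-like cells had 5 higher and 3 lower of 73, against 18.1% and 6.73%; Ndufb7 (0.555, 0.388 to 0.805), Uqcr10 (0.603, 0.425 to 0.866) and Atp5k (0.664, 0.472 to 0.946), small accessory subunits of complexes I, III and V, were the lower ones. cDC1-like cells had 7 higher and 1 lower of 71, against 20.8% and 5.57%, and Cycs stood at 767 CPM in room air against 407 CPM in control (1.89, 1.41 to 2.56). Monocyte-like cells had 3 higher and 1 lower of 73, against 16.5% and 5.52%, led by Sdha at 139 CPM in room air against 66.2 CPM in control (2.10, 1.13 to 4.28). Between aneurysm and room air, T cell-like cells had 0 members past the fold against 3.62% of genes higher and 14.2% lower, and B cell-like cells 1 in each direction against 3.58% and 11%.

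Endothelial-like cells, which line vessels, had 4 members higher and 9 lower of 56 in room air than in control, against 11.6% and 13% of all genes tested. These counts lie near the shares over all genes, and complex I holds 36 of the 93 nuclear members. The members whose interval left out 1 are therefore listed singly. Ndufb4 stood at 210 CPM in room air against 410 CPM in control (0.512, 0.321 to 0.806). Ndufv3 (0.533), Ndufb9 (0.556), Ndufa11 (0.604), Ndufa7 (0.637) and Ndufa2 (0.658) were also lower. So was Atp5g1 (0.655), a subunit of the ATP synthase ring. Atp5c1 was on the other side at 325 CPM in room air against 194 CPM in control (1.68, 1.02 to 2.83). ILC2-like cells, a class of innate lymphoid cells, had 1 higher and 3 lower of 22, against 13.7% and 15.3%. Cox7a2l, known for its part in joining respiratory complexes, stood at 709 CPM in room air against 351 CPM in control (2.02, 1.19 to 3.52). Ndufa4 (0.278), Ndufa3 (0.571) and Ndufa13 (0.594) were lower.

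In the aneurysm and room air pair, 4 members were higher and 4 lower of 59 in endothelial-like cells, against 7.59% and 9.7% of all genes. ILC2-like cells had 5 higher and 1 lower of 44, against 7.42% and 8.13%. Mature dendritic cell-like cells had 3 higher and 2 lower of 69, against 5.7% and 7.65%. No member was lower by that much in the classes that follow. In gamma-delta T-like cells 3 of 65 were higher, against 6.73% of all genes higher and 7.52% lower. In neutrophil-like cells 3 of 75 were higher, against 4.16% and 6.48%. In monocyte-like cells 2 of 77 were higher, against 7.68% and 6.7%. cDC1-like cells had 0 of 75 past the fold, against 7.49% and 5.09%, and cDC2-like cells 0 of 80, against 5.93% and 5.77%.

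The members that differed most between classes of the aneurysm library included Cycs, at 842 CPM in cDC1-like and 156 CPM in B cell-like cells, a 5.40-fold span. cDC1-like cells also had the highest Cycs in the room air library (767 CPM) and the control library (407 CPM). Ndufa4 spanned 3.59-fold, with 841 CPM in gamma-delta T-like and 234 CPM in mature dendritic cell-like cells, and Ndufs7, an iron-sulphur core subunit of complex I, 3.99-fold between the same classes at 238 and 59.6 CPM. Wider spans rested on few UMIs: Ndufaf4 at 9.94-fold had 3 UMIs in its lowest class, Ndufaf2 at 6.93-fold 13, and Atp5sl and Ndufaf7 2 each. Cox4i1 by contrast spanned 1.47-fold.

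Several complex IV subunits exist as paired isoforms, 1 general and 1 known from muscle, testis or lung, and most of the restricted forms were nearly absent. Cox6a2, the heart and skeletal muscle form of subunit 6A (chr7:128205435-128206387, - strand), was the exception: 190 of its 289 UMIs lay in the 31 pDC-like cells, a cluster named from Siglech and other plasmacytoid dendritic cell markers. It was at 973 CPM over 22 aneurysm pDC-like cells and 551 CPM over 8 room air ones, and the only control pDC-like cell held 10 UMIs of it. Of those cells 27 of 31 (87.1%) had a UMI, at a median depth of 5534 UMIs in aneurysm and 5537 in room air. Macrophage-like cells were deeper than these in aneurysm and room air, at medians of 7600 and 6407 UMIs. In control their median was lower, at 3243 UMIs. A Cox6a2 UMI was found in 3.31% of aneurysm, 3.25% of room air and 0.971% of control macrophage-like cells. In T cell-like cells it was found in 1 of 587 aneurysm (0.170%), 0 of 417 room air and 0 of 96 control cells. By exact binomial intervals, the 0 counts allow a share of cells with a UMI of up to 0.881% in room air and 3.77% in control. Median depths of the T cell-like cells were lower than those of pDC-like cells, at 2714, 2498 and 1888 UMIs in aneurysm, room air and control, and these limits hold for cells with a UMI at that depth, not for cells that express the gene. Because no members were among the genes that separated the cells, Cox6a2 did not help to form the pDC-like cluster.

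**Figure D4:**
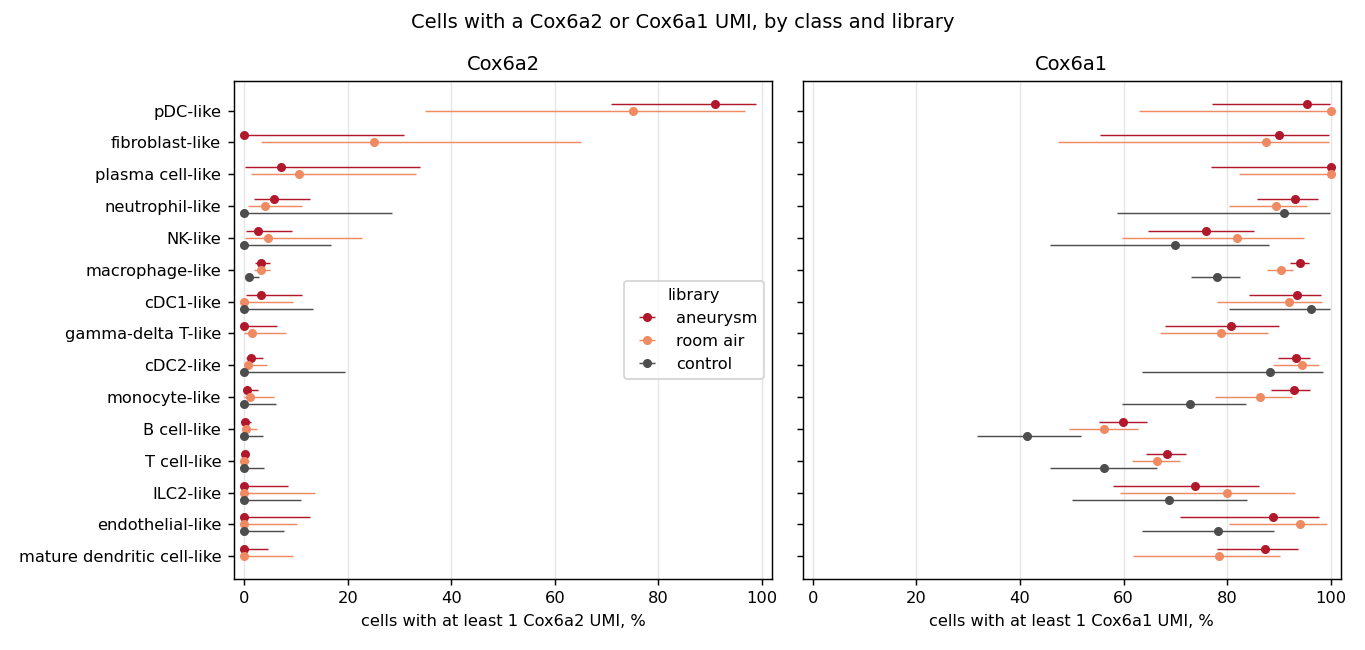
Share of cells with at least 1 UMI of Cox6a2 (left) or of its general form Cox6a1 (right) by cell class and library, with exact 95% binomial intervals; class and library pairs under 5 cells are not drawn. Cox6a2 was found in 20 of 22 aneurysm (90.9%) and 6 of 8 room air pDC-like cells, and in at most 5.68% of the cells of any other class and library pair with 25 or more cells, while Cox6a1 is found in 41.4% or more of the cells of every class drawn.

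The general forms were all abundant: Cox6b1 was at 657, 668 and 764 CPM, Cox8a at 751, 745 and 832 CPM and Cox7a2 at 409, 395 and 468 CPM in aneurysm, room air and control cells. The 3 genes for the c subunit of the ATP synthase, Atp5g1, Atp5g2 and Atp5g3, encode the same mature protein and were at 390, 362 and 229 CPM in aneurysm, 374, 336 and 235 in room air and 346, 370.2 and 257 in control cells. Cox6a1 was at 481 CPM in aneurysm, 479 in room air and 568 in control cells. Cox7a1, the muscle form of subunit 7A, had 146 UMIs, 99 of them (67.8%) in macrophage-like cells, of which 92 of 1587 had a UMI. The general Cox7a2 had 42.7% of its UMIs in macrophage-like cells. Cox6b2, known from testis, had 203 UMIs, with 42.9% in macrophage-like and 21.2% in cDC2-like cells. The general Cox6b1 had 43.7% and 11.4% of its UMIs in the same 2 classes, so the macrophage-like share was much the same for both forms. Cox4i2, the oxygen-sensitive form of subunit 4, had 37 UMIs, 30 of them in the room air library. Of the 37, 17 lay in 6 of the 33 plasma cell-like cells. Ndufa4l2, a hypoxia-induced relative of Ndufa4, had 40 UMIs, of which 18 lay in 1 endothelial-like cell and 12 in fibroblast-like cells. Cox8b had 11 UMIs.

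Promoters of 77 nuclear members were found among RefSeq promoters of GRCm38.p6, which run from 250 bases before to 50 after the gene start. The word GCATGCGC, from the palindrome bound by NRF1, a factor known to act on respiratory chain genes, was on either strand in 13 of them (16.9%), against 824 of 27025 genes (3.05%). The 13 were Ndufa6, Ndufa8, Ndufa11, Ndufaf4 and Ndufaf5 of complex I and its assembly, Sdhb of complex II, Uqcrc1 and Uqcr11 of complex III, Cox6a1 of complex IV, Atp5g2, Atp5k and Atp5l of complex V, and Cycs. The word ACCGGAAGT, of the GABP factor, was on either strand in 1 member (1.30%) and in 327 genes (1.21%). The NRF1 word replaced a longer form after the longer form's matches had been seen, so its shares are a description and test nothing. Both words were sought as exact letters only. The genes behind the shares were not matched to the members for base content or expression. The general Cox6a1 (chr5:115348909-115349208, - strand) and Cycs (chr6:50566520-50566819, - strand) are shown with the NRF1 word in capitals, which in Cox6a1 occurs on both strands and overlaps itself. They stand beside Atp5b (chr10:128083057-128083356, + strand) and Uqcrfs1 (chr13:30545267-30545566, - strand), whose windows do not hold these exact letters. Cycs, Atp5b and Uqcrfs1 are examples picked by hand among members whose room air over control ratio in macrophage-like cells was 1.40 or more. Others past that ratio, such as Sdha and Ndufaf3, are not shown.
Cox6a1: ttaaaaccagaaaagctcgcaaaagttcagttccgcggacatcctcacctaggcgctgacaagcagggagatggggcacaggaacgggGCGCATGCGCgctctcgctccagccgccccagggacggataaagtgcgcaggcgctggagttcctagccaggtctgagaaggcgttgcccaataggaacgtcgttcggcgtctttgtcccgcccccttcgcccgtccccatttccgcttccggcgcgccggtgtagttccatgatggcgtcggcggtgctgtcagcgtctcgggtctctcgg
Cycs: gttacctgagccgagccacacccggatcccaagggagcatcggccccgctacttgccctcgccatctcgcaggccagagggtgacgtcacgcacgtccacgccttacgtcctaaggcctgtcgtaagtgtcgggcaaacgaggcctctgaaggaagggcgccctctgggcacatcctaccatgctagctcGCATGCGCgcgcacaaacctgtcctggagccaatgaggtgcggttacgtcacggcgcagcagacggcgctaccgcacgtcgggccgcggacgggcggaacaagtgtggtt
Atp5b: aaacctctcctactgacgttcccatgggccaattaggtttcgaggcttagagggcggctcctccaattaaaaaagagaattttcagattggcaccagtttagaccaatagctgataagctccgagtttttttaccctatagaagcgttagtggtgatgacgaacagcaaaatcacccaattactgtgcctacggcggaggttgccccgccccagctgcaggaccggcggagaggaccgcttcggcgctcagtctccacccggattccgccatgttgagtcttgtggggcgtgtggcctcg
Uqcrfs1: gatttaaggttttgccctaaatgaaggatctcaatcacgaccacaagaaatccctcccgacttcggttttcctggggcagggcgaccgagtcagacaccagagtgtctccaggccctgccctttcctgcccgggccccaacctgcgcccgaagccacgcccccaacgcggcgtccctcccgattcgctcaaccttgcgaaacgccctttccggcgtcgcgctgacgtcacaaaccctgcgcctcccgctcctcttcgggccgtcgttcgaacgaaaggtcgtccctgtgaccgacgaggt
A match is only a run of letters, and binding was not measured.

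Other mitochondrial genes were read for the setting of these results. Between room air and control macrophage-like cells, 18 of 19 tested genes of the tricarboxylic acid cycle and pyruvate dehydrogenase were higher, with a median log2 ratio of 0.37 against 0.14 over all genes; Mdh2, mitochondrial malate dehydrogenase, stood at 266 CPM in room air against 161 CPM in control (1.65, 1.42 to 1.94) and Idh3a, an isocitrate dehydrogenase subunit, at 48.6 against 26.4 CPM (1.84, 1.26 to 2.78). Over all genes tested 60.0% were higher in this comparison. Of 74 mitochondrial ribosome genes 50 were higher, with a median of 0.09, and of 11 complex IV assembly genes 5, with a median of -0.05. Of the 8 genes for ATP exchange, pores and uncoupling 6 were higher; Vdac2, an outer membrane pore, had a ratio of 1.58 (1.35 to 1.85) and Atpif1, the inhibitor of the ATP synthase, one of 0.646 (0.595 to 0.701). Among 13 genes of mitochondrial transcription and biogenesis 6 were higher and 7 lower, and Pparg, a lipid-sensing nuclear receptor, was at 31.3 CPM in room air against 5.11 CPM in control (6.12, 2.74 to 16.97), from 6 control UMIs. Between aneurysm and room air macrophage-like cells the medians of these 5 lists lay between -0.04 and 0.07.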

How the data were processed

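The deposited values were UMI counts per gene and cell barcode of 10x 3′ v2 libraries, for which the submitters' processing notes name Cell Ranger, STAR and the mm10 build; the versions are not given in the sources used here. A library pooled several mice and each group was 1 library, so no test between groups was possible. Barcodes with at least 200 genes and at most 10% mt- UMIs were kept. The most doublet-like barcodes by Scrublet score were removed at 0.8% per 1000 barcodes (65 in aneurysm, 27 in room air and 5 in control), since its automatic threshold marked 1, 1 and 2. Cells were clustered in scanpy 1.11.5 on 1998 variable genes without the 106 members (30 components, 15 neighbours, Leiden resolution 1, leidenalg 0.10.2), which gave 25 clusters. A cluster took a class name when at least 3 markers of it were detected and its top 10 genes by fold held markers of that class and no more of another; this naming rule was set after the clusters were seen, and 3 clusters stayed unnamed.

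Sums of UMIs over the cells of a class in a library were compared as CPM where both sides had at least 25 cells and, for single genes, at least 50 UMIs. Intervals are exact conditional binomial for ratios of CPM, Woolf's for the ratio of 2 mitochondrial per nuclear ratios and exact Clopper-Pearson for shares, all at 95% and covering counting error only; scipy 1.17.1 and pandas 2.3.3 were used and the steps were tested on simulated data. TMM factors came from edgeR 4.0.16 in R 4.3.3. The NRF1 word replaced a longer form of it after the longer form's matches had been seen. Coordinates and transcript lengths are from GENCODE M21 on GRCm38. Genes named are the mt- members, the nuclear members past 1.5-fold with an interval that leaves out 1, the isoform pairs, the most abundant member of each complex, the 8 widest spreads over classes and examples from the context lists; genes named for the core list or for agreement over classes were chosen after their values were seen. Members and lists were chosen with earlier results of these data known. A smoke-exposed group without aneurysm is not analysed here. Some results on single members are not reported here.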

Additional observations from a re-analysis of the deposited data

Results flagged for a closer look

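The ratio of mitochondrial to nuclear UMIs lay on opposite sides of 1 between room air and control, depending on the class. It was 0.688 in T cell-like, 0.708 in cDC1-like, 0.810 in macrophage-like and 0.832 in B cell-like cells, against 1.07 in monocyte-like and 1.10 in endothelial-like cells. These values were picked out because the intervals of each class leave out 1 on different sides. The difference between classes was not tested, since there is 1 library in each group. The monocyte-like class held 95 room air and 59 control cells, and the endothelial-like class 34 and 46.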

How the results depend on the processing

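No paired analysis was possible because each group is 1 library, and for the same reason no replicate could be left out. Depth, viability, genotype and diet differ together between the libraries and their parts in these results cannot be told apart. TMM scaling leaves the mitochondrial per nuclear ratio as it is and moves the sums. Over all alternatives the ratio moved by less than its interval in 138 cases, by more in 30 and changed side in 2; the mitochondrial sum did so in 106, 39 and 4 and the nuclear sum in 121, 21 and 7. The cause of the moves was not tested.

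With TMM scaling, room air over control in B cell-like cells was 0.930 for the nuclear and 0.774 for the mitochondrial sum, with 2 nuclear members higher and 6 lower by 1.5-fold (14.8% and 9.76% of all genes), and aneurysm over room air 1.08 and 1.28, with 2 higher and 0 lower (5.72% and 7.99%). In T cell-like cells room air over control turned to 0.814 for the nuclear sum and was 0.560 for the mitochondrial one, with 0 higher and 9 lower (21.3% and 15.9%), and aneurysm over room air turned to 1.07 for the nuclear sum and was 1.42 for the mitochondrial one, with 1 higher (6.69%). In macrophage-like cells room air over control was 0.873 and 0.707, with 2 higher and 3 lower (18% and 14.7%), and aneurysm over room air 1.03 and 1.02. Room air over control turned to 0.952 for the nuclear sum of cDC1-like cells and to 0.974 for the mitochondrial sum of monocyte-like cells.

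With the class taken from each cell's own markers, room air over control in B cell-like cells was 0.882 for the ratio and 0.943 for the nuclear sum, with 1 higher and 5 lower, and aneurysm over room air had 0 higher and 2 lower. The mitochondrial sum of T cell-like cells was 0.745 for room air over control and 1.253 for aneurysm over room air. In macrophage-like cells 1 member was lower in room air than in control, and aneurysm over room air was 0.952 for the ratio and turned to 0.967 for the mitochondrial sum. Also turned were the nuclear sum of cDC1-like cells, to 0.919 for room air over control and 1.01 for aneurysm over room air, that of mature dendritic cell-like cells, to 1.01, and the mitochondrial sum of monocyte-like cells for room air over control, to 0.943.

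With cells weighted equally, room air over control had 3 members higher in B cell-like, 1 lower in T cell-like and 1 lower in macrophage-like cells. Aneurysm over room air was 1.37 for the ratio and 0.956 for the nuclear sum of T cell-like cells, 0.981 for the ratio and 0.997 for the mitochondrial sum of macrophage-like cells, 0.966 and 0.962 in cDC1-like cells, and 0.973 for the mitochondrial sum of endothelial-like cells, which turned.

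Among cells with 2000 to 6000 UMIs, room air over control in macrophage-like cells was 0.913 for the ratio, 0.939 for the nuclear and 0.858 for the mitochondrial sum, with 3 higher and 1 lower, and T cell-like cells had 2 lower. Aneurysm over room air was 1.36 for the ratio and 1.31 for the mitochondrial sum of T cell-like cells. In macrophage-like cells it was 1.00 for the nuclear sum and 0.994 for the structural subunits outside the core list. It turned to 0.990 for the ratio of gamma-delta T-like cells and to 0.977 for the nuclear sum of neutrophil-like cells. B cell-like cells gave no room air against control value there, having under 25 control cells, and macrophage-like cells gave none without the resident clusters.

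At most 5% mt- UMIs gave 0.839 for the ratio and 0.801 for the mitochondrial sum of macrophage-like cells, and 5 members lower in B cell-like cells, for room air over control, and 1.17 for the mitochondrial sum of B cell-like cells for aneurysm over room air. A minimum of 10 UMIs gave 2 members higher in B cell-like cells and 1 lower in macrophage-like cells for aneurysm over room air, and 8 higher in T cell-like and 2 lower in macrophage-like cells for room air over control. Without the mt- member with the most UMIs the macrophage-like ratio was 0.774 for room air over control and 0.981 for aneurysm over room air, and without the overlapping mt- members, a choice made after the data were seen, 0.770 for room air over control.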
